A study of Mus musculus with 6 samples.

Results

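Small nucleolar RNAs (snoRNAs), the related small Cajal body RNAs (scaRNAs) and the non-coding genes that carry them were compared between N2A cells transfected with a hairpin RNA against the transcription factor Pou3f3 and control cells. Members were all array rows whose single platform gene symbol began with Snord, Snora, Scarna or Snhg, or was Gas5. They made up 72 of the 35556 rows of the array table, and of the 21789 rows that carried exactly 1 symbol. Pairs of Scarna17, Snora30 and Snord118 rows held the same value on all 6 arrays and were counted once, which left 69 distinct rows for 60 symbols. Of these, 32 belonged to box C/D snoRNAs, 22 to box H/ACA snoRNAs, 3 to scaRNAs and 12 to the host genes Gas5, Snhg5, Snhg11, Snhg15, Snhg16 and Snhg17. No filter on low values was applied, so all 69 were tested.

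N2A is a mouse neuroblastoma cell line. Knockdown cells were transiently transfected with 1.5 ug of a plasmid that expresses a short hairpin RNA (shRNA) against Pou3f3, control cells with a non-targeting vector, and both were grown in DMEM with 10% fetal bovine serum and harvested 2.5 days later. Each group had 3 arrays (Affymetrix Mouse Gene 1.0 ST), hybridised with label made from 200 ng of total RNA. The comparison therefore rests on 1 cell line and 1 targeting construct, no selection of transfected cells is described, and the p-values cover the spread between cultures of the same line. All values are log2 intensities, and all differences are knockdown minus control. A row was called when the limma p-value, adjusted over the 21789 rows by the Benjamini-Hochberg procedure, was under 0.1 and the fold was at least 1.3.

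Most snoRNAs are cut from the introns of longer host transcripts and trimmed back to the part that is covered by protein. Box C/D snoRNAs guide ribose methylation of ribosomal RNA (rRNA) with the methylase fibrillarin, and box H/ACA snoRNAs guide pseudouridylation with dyskerin. ScaRNAs do the same for the small RNAs of the spliceosome. Hosts are either genes for ribosomal proteins and other parts of the translation machinery, or spliced transcripts without a conserved protein product, such as Gas5 and the Snhg genes, whose mature RNAs are commonly removed by nonsense-mediated decay during translation. Many hosts begin with a cytosine followed by a run of pyrimidines, the terminal oligopyrimidine (TOP) tract, through which translation of their RNAs responds to growth conditions.

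The 3 non-coding hosts with a called row are shown first by the sequence around their start site, with Snhg11, a host without a called row, as a contrast. Each line gives 50 bases before and 50 bases from the RefSeq start site (GRCm38.p6, host strand), and capitals mark a C followed by at least 4 C or T that begins within 10 bases of the start. For Gas5, RefSeq gives a pair of starts, and the one with such a run is shown.
Snhg5, chr9:88522848-88522947, minus strand: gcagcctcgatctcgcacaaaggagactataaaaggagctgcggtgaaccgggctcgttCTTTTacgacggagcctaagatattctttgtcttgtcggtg
Snhg16, chr11:116671610-116671709, plus strand: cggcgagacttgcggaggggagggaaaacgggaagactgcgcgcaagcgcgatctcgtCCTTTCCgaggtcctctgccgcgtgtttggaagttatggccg
Gas5, chr1:161035116-161035215, plus strand: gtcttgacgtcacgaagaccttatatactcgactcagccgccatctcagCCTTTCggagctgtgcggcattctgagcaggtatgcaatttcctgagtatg
Snhg11, chr2:158375663-158375762, plus strand: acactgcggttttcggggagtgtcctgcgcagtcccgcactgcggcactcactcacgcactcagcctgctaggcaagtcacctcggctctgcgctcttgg

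The Gas5 run spanned the annotated start, whereas those of Snhg5 and Snhg16 began at bases 10 and 9, counted from the start site as base 1. No such run was found in this window for Snhg11, Snhg15, Snhg17 or the other Gas5 start. This motif was searched after the values were known, and 29.0% of 32851 mouse promoters held it in the same window. Promoter sequences were found for 37 genes that were host members or contained a measured snoRNA, and 18 of these had it. It was present in 5 of 11 ribosomal protein genes, 4 of 13 other protein-coding genes and 9 of 13 non-coding hosts. Lack of the run in this window does not show that a host lacks a TOP tract. The non-coding hosts with it included Snhg3, Snhg10 and Snhg12, whose snoRNA or scaRNA rows lay below 0. They also included 2410006H16Rik, 1110038B12Rik and Gm36220, whose snoRNA rows lay above 0. The E-box CACGTG, searched on both strands of 300 bases, occurred in 7.15% of promoters and, among the 37 hosts, in 7. The POU octamer ATGCAAAT occurred in 1.74% of promoters and in that of Wdr43 alone among the 37, and in none of Snhg5, Snhg16 or Gas5.

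Pou3f3, the target of the shRNA, measured 8.20, 8.09 and 8.35 in knockdown replicates 1 to 3 and 8.37, 8.30 and 8.47 in control replicates 1 to 3. The groups overlapped, although every knockdown value was below its same-numbered control. The difference of -0.16 was not called (limma adjusted p = 0.303, or 0.0880 with the replicate number as a block). Of the genes that define the sympathoadrenal identity of these cells, 10 were measured at levels of 9.71 or more. Of these, 3 were above 0 and 5 lay wholly below the control values, where 15.1% of all rows lay wholly below. Dbh, which makes noradrenaline, fell by 1.17, and Th, the first enzyme of that pathway, differed by -0.38 and was called lower with the block only (limma adjusted p = 0.0420, against 0.133 without it). Gata3 and Chga differed by -0.33 and -0.35, under the fold cut-off (limma adjusted p = 0.0484 and 0.0628). Lists of astrocyte, oligodendrocyte, fibroblast, macrophage, endothelial and muscle markers had median levels from 6.83 to 8.19 and median differences from -0.15 to -0.06. Among them the muscle filament gene Des was called higher (0.39), and the part of other cell types in the results below was not tested. Over all 21789 rows the median difference was -0.03.

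Among the members, 8 rows were called higher in knockdown cells and 0 lower. They were the host genes Snhg5, Snhg16 and Gas5, the box C/D snoRNAs Snord37, Snord42a, Snord42b and Snord15a, and the box H/ACA snoRNA Snora75. The 8 rows were 11.6% of the 69, where 1.3% of all rows were called higher and 0.684% lower. Member rows varied more within groups, with a median SD of 0.163 against 0.095 over all rows. A rise of at least 1.3-fold, whatever its p-value, was seen in 15 of the 69 and in 380 of all 21789 rows. Groups did not overlap, in either direction, in 30.4% of member rows (16 wholly above and 5 wholly below) and in 26% of all rows. At an unadjusted p under 0.05 there were 31 of the 69 member rows in either direction, where 19.9% of all rows were. Without knockdown replicate 2 or control replicate 2, 3 member rows were called higher, as were 67 and 78 of all rows. When the 35556 rows of the table were tested together, 28 were called in either direction. Snhg5 was the only member among them (limma adjusted p = 0.0617). Arrays of the same replicate number deviated together, so the fit was also made with this number as a block, and it called 15 member rows higher (21.7%), where it called 1.74% of all rows higher and 0.757% lower. The share of higher calls among all rows depended on scaling, with 284 higher and 149 lower in the deposited values and 232 higher and 193 lower after cyclic loess, but the same 8 member rows were called higher after it.

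**Figure D1:**
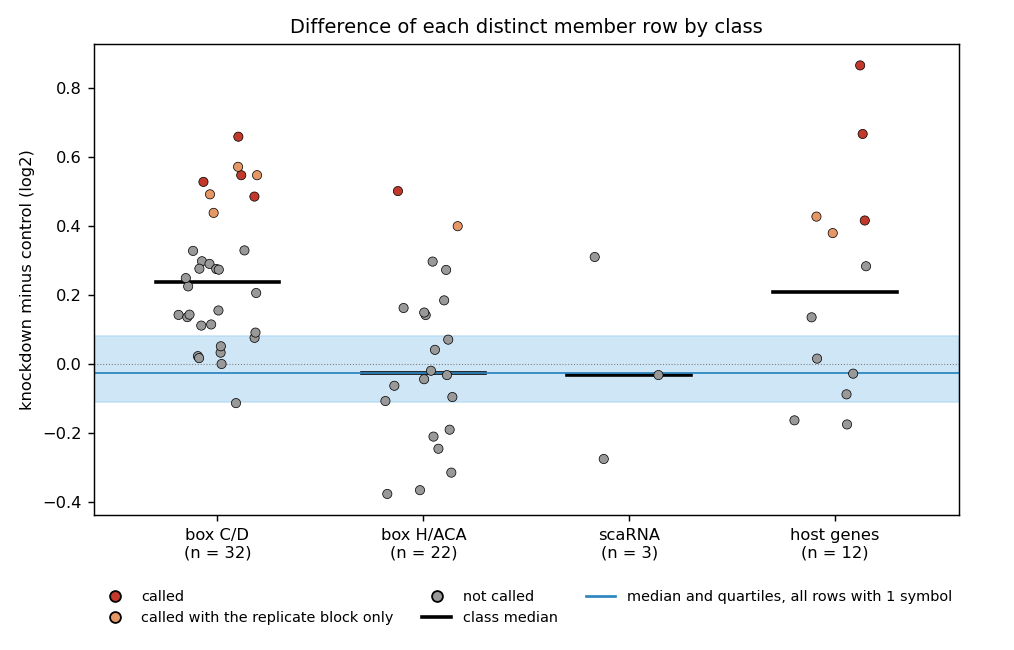
Difference between knockdown and control cells (vertical axis, log2) for each of the 69 distinct member rows, by class. Black bars are class medians, and the blue line and band are the median and quartiles of all 21789 rows with 1 symbol. Box C/D rows sit above 0 with 1 exception, while box H/ACA rows scatter on both sides.

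Among the host genes, Snhg5, which carries box C/D snoRNAs in its introns, had the largest difference. It measured 11.82, 11.72 and 11.74 in knockdown cells and 10.88, 10.80 and 11.00 in control cells. Every knockdown value lay above every control value by more than the spread within either group. The difference was 0.87 ± 0.07 (SE, limma adjusted p = 0.0028), a 1.82-fold higher level. In RNA from whole cultures, a change in every cell and a change in the share of cells with the RNA cannot be told apart. Snhg16, another spliced non-coding host, measured 10.26, 10.21 and 10.40 in knockdown cells and 9.50, 9.68 and 9.69 in control cells. The groups were again apart, by 0.67 ± 0.08 (SE, limma adjusted p = 0.0117). Both rows were called with any single array left out. No row of a snoRNA with 1 symbol lay inside either gene, so neither could be set beside its own snoRNAs here.

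Gas5, a growth-arrest-associated transcript known to host box C/D snoRNAs, had 4 rows, each with a higher mean in knockdown cells. Which part of the transcript each row probes was not given. The row with the highest level measured 12.20, 12.01 and 12.05 in knockdown cells and 11.83, 11.58 and 11.60 in control cells. The groups did not overlap, the difference was 0.42 ± 0.09 (SE, limma adjusted p = 0.0535), and the row was called in 1 of the 6 fits that left out an array, the one without control replicate 1 (limma adjusted p = 0.106 to 0.208 in the other fits). The lowest row measured 8.07, 8.49 and 7.99 in knockdown cells and 7.62, 7.93 and 7.72 in control cells, with a difference of 0.43 ± 0.13 (SE, limma adjusted p = 0.137). A further row spread more by replicate number than by group, with 11.13, 11.96 and 11.76 in knockdown cells and 10.74, 11.57 and 11.39 in control cells. Its difference was 0.38 (limma adjusted p = 0.398), yet within each number it was nearly the same at 0.39, 0.38 and 0.37. Without control replicate 1 this difference was 0.13, without knockdown replicate 2 it was 0.21, and without knockdown replicate 1 it was 0.62. Both the lowest and the further row were called with the replicate block (limma adjusted p = 0.0057 and 0.0047). The fourth row differed by 0.28 (limma adjusted p = 0.184) and its groups overlapped, with -0.03 in replicate 3.

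The other hosts did not share these differences. Snhg11, a neuronally expressed host, had rows at -0.16 and -0.18 whose groups did not overlap, and neither was called (limma adjusted p = 0.243 and 0.237). Values of the first were 7.41, 7.40 and 7.49 in knockdown cells and 7.62, 7.67 and 7.50 in control cells, so that replicate 3 hardly differed. Snhg15 differed by -0.03 and the 3 rows of Snhg17 by 0.14, 0.02 and -0.09, with groups that overlapped in each. Among the 12 host rows, 4 lay wholly above and 2 wholly below the control values, where 10.9% of all rows lay wholly above and 15.1% wholly below.

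**Figure D2:**
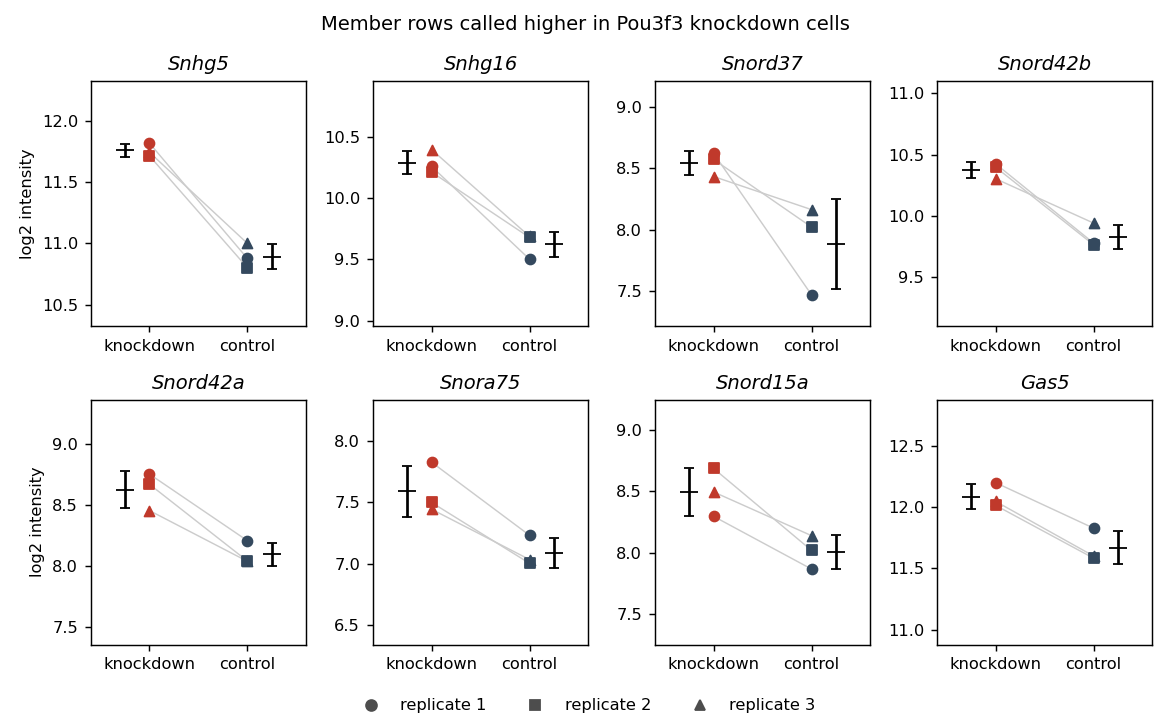
Log2 intensity (vertical axes, each spanning 2 log2 units) of the 8 member rows called higher, in knockdown cells (red) and control cells (dark blue). Marker shapes are replicate numbers, grey lines join arrays of the same number, and crosses with error bars are means ± SD (n = 3). No knockdown point lies at or below a control point, and Snord37 in control replicate 1 stands apart at 7.47.

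Box C/D snoRNAs lay above 0 as a class, in 31 of 32 rows, where 42.5% of all rows were. Their median difference was 0.24 (range -0.11 to 0.66), 4 were called higher and 9 lay wholly above the control values. Among all rows, 1.3% were called higher and 10.9% lay wholly above. The guide targets given here are those known from human cells. Snord42a and Snord42b, guides for the small-subunit rRNA inside the ribosomal protein gene Rpl23a, had similar differences. Snord42b measured 10.42, 10.40 and 10.30 in knockdown cells and 9.78, 9.76 and 9.94 in control cells. Snord42a measured 8.75, 8.67 and 8.45 in knockdown cells and 8.21, 8.04 and 8.04 in control cells. Neither row overlapped between groups, and the differences were 0.55 ± 0.07 and 0.53 ± 0.09 (SE, limma adjusted p = 0.0160 and 0.0282). Snord42b was called with any single array left out, whereas Snord42a was not called without knockdown replicate 2, control replicate 2 or control replicate 3 (limma adjusted p = 0.129, 0.130 and 0.115).

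Snord37, a guide for the large-subunit rRNA in an intron of the elongation factor gene Eef2, had the largest difference of the class. It measured 8.62, 8.57 and 8.43 in knockdown cells and 7.47, 8.02 and 8.16 in control cells. The groups did not overlap, but control replicate 1 was far below the other controls. The difference was 0.66 ± 0.16 (SE, limma adjusted p = 0.0729) and within the numbers it ranged widely, at 1.16, 0.55 and 0.27. Without control replicate 1 the difference was 0.45 (limma adjusted p = 0.0389), and without knockdown replicate 1, 2 or 3 or control replicate 2 the row was not called (limma adjusted p = 0.124 to 0.234). Snord15a, a large-subunit guide from the ribosomal protein gene Rps3, measured 8.30, 8.69 and 8.50 in knockdown cells and 7.87, 8.02 and 8.14 in control cells. Its groups were apart by 0.49 ± 0.11 (SE, limma adjusted p = 0.0633), and it was not called without knockdown replicate 2 or 3 or control replicate 2 or 3 (limma adjusted p = 0.115 to 0.198).

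A further 4 box C/D rows were called with the replicate block only. Snord33, from Rpl13a, measured 8.76, 9.42 and 9.27 in knockdown cells and 8.46, 8.70 and 8.81 in control cells, so that replicate 1 was the lowest of each group and its knockdown value lay within the controls. Snord49a measured 9.03, 9.51 and 9.23 in knockdown cells and 8.59, 8.93 and 8.93 in control cells, without overlap. Snord57, from the gene of the box C/D core protein Nop56, measured 11.93, 12.55 and 12.42 in knockdown cells and 11.57, 12.25 and 11.36 in control cells. Its groups overlapped, and the difference in replicate 3 was larger than in the others. Snord61 measured 6.55, 7.34 and 6.49 in knockdown cells and 5.91, 6.46 and 6.37 in control cells, and knockdown replicate 2 was the highest by far. The differences of these 4 rows were 0.49, 0.44, 0.57 and 0.55 (limma adjusted p = 0.147, 0.132, 0.208 and 0.218, and with the block 0.0059, 0.0051, 0.0188 and 0.0177). The difference of Snord61 was 0.27 without knockdown replicate 2.

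The lower end of the class held rows of high and of low intensity. Snord82, Snord35a, Snord55, Snord38a and Snord8 differed by 0.00 to 0.05, and Snord118, the U8 RNA of large-subunit rRNA processing that has its own promoter, by 0.08. Snord73b was the row below 0, at 10.21, 10.25 and 10.25 in knockdown cells and 10.28, 10.45 and 10.31 in control cells. Its groups were narrowly apart, and the difference of -0.11 was not called (limma adjusted p = 0.382). The differences of all rows depended on their level, with a median of -0.09 for the 3731 rows from 7 to 8 and 0.06 for the 2659 rows from 9 to 10. Box C/D rows stood at 0.21 (4 of 4 above 0) and 0.24 (6 of 6) in these ranges, at 0.41 (8 of 8) from 8 to 9, where all rows had -0.05, at 0.11 (3 of 4) from 10 to 11, where all rows had 0.07 and 65.4% were above 0, and at 0.13 (6 of 6) from 12 to 13, where all rows had 0.01.

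Box H/ACA snoRNAs did not differ in a common direction. Of 22 rows, 10 were above 0, the median was -0.03 (range -0.38 to 0.50) and 1 row was called. Among all rows, 1.3% were called higher. The direction varied with level. From 7 to 8, 5 of 6 rows were above 0 (median 0.15), where 16.4% of all rows were. Counts above 0 were 3 of 5 from 9 to 10, 0 of 3 from 10 to 11, 1 of 2 from 11 to 12 and 0 of 3 from 12 to 13. Of all rows, 62.8%, 65.4%, 60.8% and 52.4% were above 0 in these ranges. Snora75, from an intron of the nucleolin gene Ncl, measured 7.83, 7.50 and 7.44 in knockdown cells and 7.23, 7.00 and 7.03 in control cells. Replicate 1 was the highest in each group and the groups did not overlap. The difference was 0.50 ± 0.11 (SE, limma adjusted p = 0.0594), and the row was not called without knockdown replicate 2, control replicate 2 or control replicate 3 (limma adjusted p = 0.147, 0.215 and 0.165). Snora21, from Rpl23, had a pair of rows at 0.40 and 0.30, and the first, at 9.51, 9.64 and 9.63 in knockdown cells and 8.91, 9.42 and 9.26 in control cells, was called with the block only (limma adjusted p = 0.0116, against 0.128 without it). Without control replicate 1 its difference was 0.26. Snora20, from the chaperonin gene Tcp1, differed by 0.27 (limma adjusted p = 0.222), with groups that did not overlap.

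The lowest differences of any member were those of Snora3. Its rows measured 10.63, 10.78 and 10.82, and 10.66, 10.81 and 10.82, in knockdown cells, against 11.15, 10.95 and 11.23, and 11.19, 10.96 and 11.27, in control cells. All knockdown values lay below all control values. The rows are nearly identical and may not be separate measurements. At -0.37 and -0.38 they had limma adjusted p-values of 0.0796 and 0.0767 but missed the fold of 1.3, which corresponds to 0.38 on the log2 scale. After cyclic loess they were at -0.41 and -0.42 and both were called lower.

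Other box H/ACA rows also lay below 0. Snora44 and Snora16a, which lie in Snhg12, differed by -0.31 and -0.21, and Snora73b and Snora73a, which lie in Snhg3 and act in the cleavage of rRNA precursors, by -0.25 and -0.19. Their groups overlapped, and none was called. Snora44 measured 11.37, 12.10 and 11.98 in knockdown cells and 11.88, 12.23 and 12.29 in control cells. Each knockdown array was lower than the control of its number, while replicate 1 was the lowest of both groups. Snora52 differed by -0.04 at a mean of 13.92, near the top of the array's range. Among scaRNAs, Scarna17 differed by 0.31, Scarna8 by -0.03 and Scarna13, which lies in Snhg10, by -0.28, and none was called.

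The replicate number took about as large a share of the sum of squares as the group. These shares are not directly comparable, because the number has 3 levels and the group 2, which favours the number. In the median member row, the group took 42.5% of the sum of squares and the number 44.1%, against 28.8% and 38.5% in the median of all rows. Arrays without any link between same numbers would give the number a share not far from 44.1% and 38.5%. These shares alone therefore do not show an effect of the number. In host rows the group took 57% and the number 27.1%. The deviations of same-numbered arrays from their group means correlated over the 69 member rows at r = 0.74, 0.55 and 0.42 for numbers 1, 2 and 3, and over all 21789 rows at 0.64, 0.31 and 0.29. Arrays of unlike number also correlated. Knockdown replicate 3 with control replicate 2 had r = 0.30 over the member rows and 0.25 over all rows. Knockdown replicate 2 with control replicate 3 had 0.15 and 0.22. Rows of 1 array share its RNA and its hybridisation, so these are descriptions. Control replicate 1 stood out for its low box C/D and host values, with a median deviation from the row means of -0.22 and -0.23, where control replicates 2 and 3 were at -0.06 and -0.07 for box C/D rows.

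Within the numbers, the class medians nevertheless ran the same way for box C/D snoRNAs and hosts. For box C/D rows they were 0.27, 0.25 and 0.14 in numbers 1, 2 and 3, and for host rows 0.31, 0.21 and 0.10. Box H/ACA medians were -0.07, 0.11 and -0.01. In all 3 numbers, 21 box C/D rows were higher and 1 was lower, and 8 box H/ACA rows were higher and 8 lower, where 23.8% of all rows were higher and 29% lower. The 6 host rows higher in all numbers were those of Snhg5 and Snhg16, 3 of Gas5 and 1 of Snhg17. Without control replicate 1 the host median was 0.093, whereas the box C/D median stayed between 0.18 and 0.28 whichever array was left out.

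**Figure D3:**
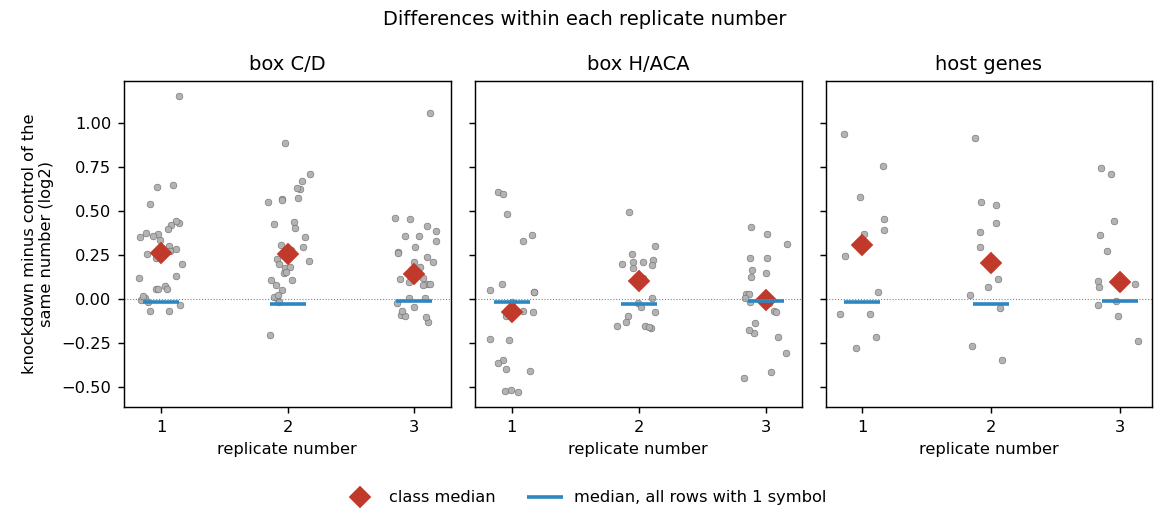
Knockdown minus control of the same replicate number (vertical axis, log2) for each distinct row of box C/D snoRNAs, box H/ACA snoRNAs and host genes. Red diamonds are class medians and blue bars the medians of all rows with 1 symbol. Box C/D and host medians lie above the blue bars in each number, and box H/ACA medians lie on both sides.

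To set snoRNAs beside the genes that carry them, each was assigned to the gene whose RefSeq span contains it. Of the 57 distinct snoRNA and scaRNA rows, 41 lay in protein-coding genes, 24 of them genes of ribosomal proteins, and 14 in non-coding genes. Snord118 lay in no gene, and Snord8 could not be assigned. In non-coding hosts the classes lay on opposite sides of 0, a difference that was not tested. All 7 box C/D rows there were above 0 (median 0.21), among them Snord22 of Snhg1 at 0.33, Snord52 of 1110038B12Rik at 0.29, Snord87 of Snhg6 at 0.21 and Snord104 of Gm36220 at 0.16. All 5 box H/ACA rows, of Snhg3, Snhg4 and Snhg12, were below 0 (median -0.21). None of these 12 rows was called, and Snord49a was with the block. In ribosomal protein genes, 13 of 14 box C/D rows (median 0.21) and 5 of 10 box H/ACA rows (median 0.03) were above 0.

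A host with a row of its own was found for 30 snoRNA rows, in 24 genes. Host differences were small, from -0.12 to 0.42, with 22 of 24 above 0, and Gas5 was the only host called (with the block, Haus6 at 0.39 as well). Host rows reached mean intensities of 14.30, and of all rows from 13 to 14, 47.9% were above 0. Over the 30 rows, some of which share a host, snoRNA and host differences had r = 0.09 and rho = 0.09. In the 15 rows with ribosomal protein hosts these were 0.33 and 0.44, and in the 15 with other hosts -0.01 and -0.07. Both were above 0 in 19 pairs, the snoRNA alone in 2 and the host alone in 9. The snoRNA row minus its host row was compared between groups with an exact permutation test (two-sided), which cannot go below p = 0.1 with 3 arrays against 3. This floor was reached by 12 of the 30 rows, 7 higher and 5 lower than the host. A row without any difference from its host reaches it with probability 0.1. The 12 are not separate results, because they hold both near-identical Snora3 rows and both Snord42 rows set against the same Rpl23a row.

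**Figure D4:**
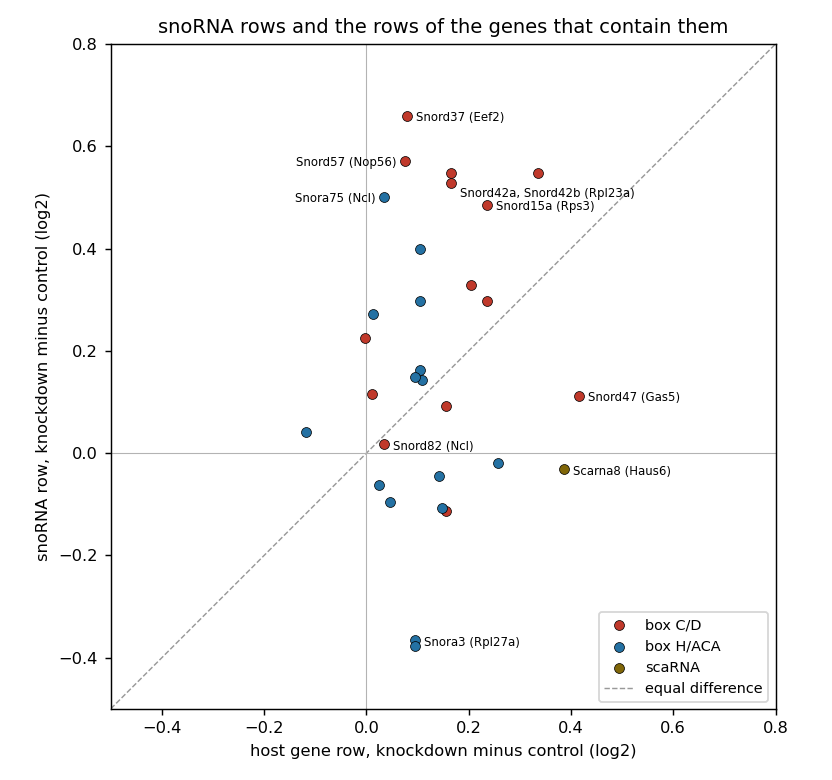
Difference of each snoRNA row (vertical axis, log2, knockdown minus control) against the difference of the row of its host gene (horizontal axis), for 30 rows with a measured host. The dashed line marks equal differences. Host values lie between -0.12 and 0.42, whereas snoRNA values spread from -0.38 to 0.66.

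Rpl23a differed less than its snoRNAs. This ribosomal protein gene had 13 rows, with differences from 0.16 to 0.19. The row with the highest mean measured 13.04, 13.03 and 13.07 in knockdown cells and 12.92, 12.79 and 12.93 in control cells. It was higher by 0.16 and not called (limma adjusted p = 0.216), while Snord42a and Snord42b exceeded this difference by 0.36 and 0.38. Eef2 measured 14.34, 14.33 and 14.37 in knockdown cells and 14.24, 14.27 and 14.28 in control cells, so it differed by 0.08 where Snord37 differed by 0.66. Ncl differed by 0.04, with overlapping groups, whereas Snora75 differed by 0.50 and Snord82 by 0.02. Rps3 was higher by 0.24, Snord15a by 0.49 and Snord15b by 0.30. These host rows lay at higher intensities than their snoRNA rows, with means of 14.30 for Eef2 and 8.21 for Snord37. Log2 differences at such unlike levels may not be comparable in size, and this was not tested. Each of the contrasts of Snord42a, Snord42b, Snord37, Snora75 and Snord15a with its host reached the exact permutation floor of p = 0.1, and those of Snord82 and Snord15b did not (p = 0.9 and 0.8). The snoRNA rows that reached the floor here were picked because they were called higher on these same arrays. Reaching it is therefore not separate evidence that snoRNA and host moved unequally.

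Opposite cases were Snora3 and Snord47. Rpl27a, the host of Snora3, had 9 rows, with differences from 0.08 to 0.12. The row with the highest mean measured 13.39, 13.44 and 13.43 in knockdown cells and 13.28, 13.34 and 13.35 in control cells. It was thus higher by 0.10, and Snora3 fell short of it by 0.46 and 0.47 on its rows. Snord47, the Gas5 snoRNA with a row here and a guide for large-subunit rRNA, measured 12.35, 12.44 and 12.51 in knockdown cells and 12.36, 12.33 and 12.27 in control cells. Its groups overlapped and it differed by 0.11, which was 0.30 less than the brightest Gas5 row. Both contrasts reached the exact permutation floor of p = 0.1. The Snora3 rows were named for lying wholly below their controls on these same arrays, so their contrasts are not separate evidence either.

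Differences of snoRNA rows that share a host lay close together in some genes and further apart in others. Snord95 and Snord96a of Rack1 differed by 0.27 and 0.25, and both rows lay wholly above their controls. Snord33 and Snord35a of Rpl13a differed by 0.49 and 0.00, and Snord73a and Snord73b of Rps3a1 by 0.09 and -0.11. Of the 13 pairs of rows with a shared host, these last 2 reached the exact permutation floor of p = 0.1. A pair without any difference reaches this floor with probability 0.1, so 2 of 13 is near the share expected without unequal change. The 13 included pairs in which both rows were of the same snoRNA (Snord58b, Snora21 and Snora3). Snord49a and Snord49b of 2410006H16Rik, at 0.44 and 0.14, did not (exact permutation p = 0.4), nor did Snora75 and Snord82 of Ncl (p = 0.3). This permutation does not use the replicate numbers. Within numbers 1, 2 and 3, Snord49a exceeded Snord49b by 0.45, 0.42 and 0.04, and Snora75 exceeded Snord82 by 0.58, 0.47 and 0.40. Which RNA a row reports bears on all of these values, because probes for a snoRNA also match unspliced host RNA and cannot tell it from the mature snoRNA.

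**Figure D5:**
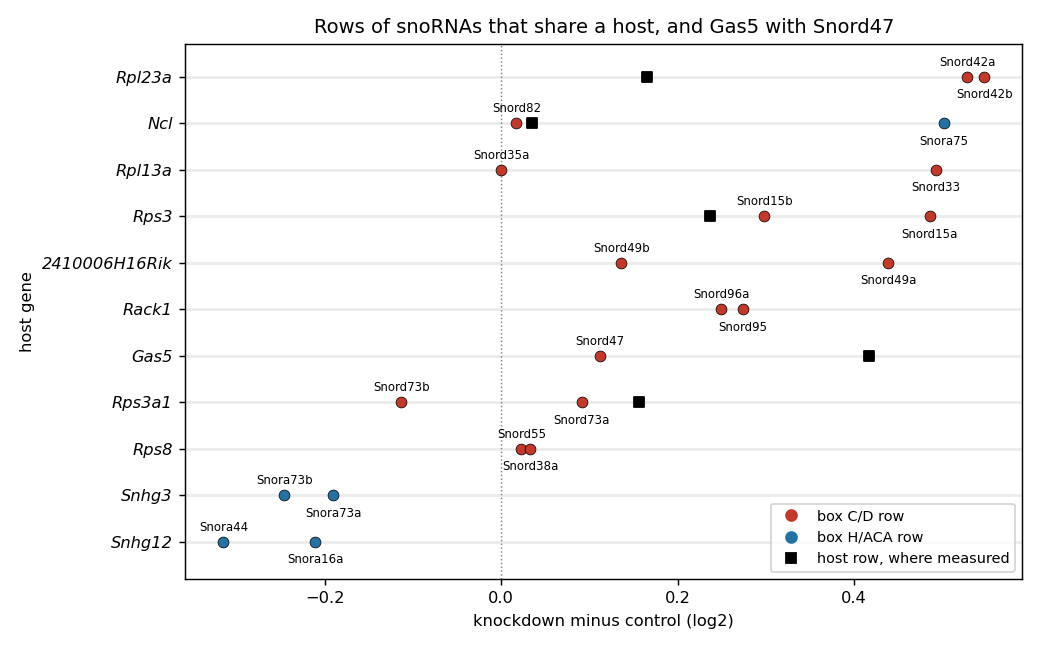
Difference between knockdown and control cells (horizontal axis, log2) for snoRNAs that share a host gene, and for Gas5 with Snord47. Red and blue circles are box C/D and box H/ACA rows and black squares are host rows where measured. Snord42a and Snord42b coincide near 0.53 to 0.55, right of Rpl23a at 0.16, and Snord47 lies left of Gas5.

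The proteins that bind and mature these RNAs were measured in the same cells. Of 15 genes for box C/D particle proteins and their assembly factors, 14 were above 0 (median 0.17) and none was called, where 65.4% of all rows at intensities from 10 to 11, the range of the list's median, were above 0. At an unadjusted p under 0.05 there were 5 of the 15, where 19.9% of all rows were. Nop58, a core protein, measured 11.50, 11.64 and 11.31 in knockdown cells and 11.24, 11.06 and 11.10 in control cells, higher by 0.35 without overlap but below the fold cut-off (limma adjusted p = 0.0963). Nufip1, an assembly factor, differed by 0.33 (limma adjusted p = 0.0855), and the methylase gene Fbl by 0.15 (0.244). The assembly helicase gene Ruvbl2 differed by 0.38 (limma adjusted p = 0.168) and was the gene of this list called with the block (0.0066). Of 10 box H/ACA particle genes, 6 were above 0 (median 0.08), which is near the 60.8% of all rows from 11 to 12, the range of this list's median, and none was called. At an unadjusted p under 0.05 there were 4 of the 10. Gar1, a core protein, measured 12.31, 11.78 and 11.79 in knockdown cells and 11.94, 10.99 and 11.24 in control cells. Replicate 1 was the highest in each group, and the difference of 0.57 was called with the block only (limma adjusted p = 0.0034, against 0.211 without it). The pseudouridine synthase gene Dkc1 differed by 0.30 (limma adjusted p = 0.243).

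Pathways that process or remove these transcripts held no gene called without the block. None of 14 nonsense-mediated decay factors was called, with 9 above 0, a median of 0.04 and 2 at an unadjusted p under 0.05, both shares near or under those of all rows (65.4% above 0 from 10 to 11, and 19.9% at that p), and the largest difference was that of Nbas at -0.25 (limma adjusted p = 0.0881), below the fold cut-off. Of 17 exosome and trimming genes, 14 were above 0 (median 0.13), where 65.4% of all rows from 10 to 11 were, led by Exosc2 at 0.30 (limma adjusted p = 0.261). Of 33 genes for RNA polymerase I and rRNA precursor processing, 23 were above 0 (median 0.11), where 60.8% of all rows from 11 to 12 were, led by Taf1a at 0.42 (limma adjusted p = 0.244, or 0.0092 with the block, with which it was called). In these lists 6 of 17 and 8 of 33 genes had an unadjusted p under 0.05, the second share near the 19.9% of all rows.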

How the data were processed

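Total RNA was isolated on RNeasy columns, which recover short RNAs poorly, and labelled for Mouse Gene 1.0 ST arrays. The authors applied RMA background correction and quantile normalisation and summarised probes per gene. Deposited values are log2 intensities from 3.16 to 14.89. This hides a shift shared by most transcripts. The submitters' processing notes name RMA and limma but no versions. Of the 35556 rows, 21789 carried 1 platform symbol, 1621 several and 12146 were not listed. Of the rows with several symbols, 41 included a snoRNA, scaRNA or host symbol and were left out.

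Rows with 1 symbol were fitted with lmFit and eBayes (limma 3.58.1, R 4.3.3) without covariates, as the methods describe but without their variance filter, which was run as an alternative. Replicate numbers were taken as pairs because deviations of same-numbered arrays correlated above 0.1 in all 3 pairs (0.64, 0.31 and 0.29 over all rows). Knockdown replicate 3 with control replicate 2 (0.25) and knockdown replicate 2 with control replicate 3 (0.22) correlated nearly as well as same-numbered arrays 2 and 3. Only number 1 thus stood clearly apart, and these values do not settle the pairing of numbers 2 and 3. The block is given where it changed the call of a gene or list described. The fit was tried on simulated arrays drawn independently of each other. That check therefore did not cover the correlation between same-numbered arrays. Hosts were assigned by RefSeq span (GRCm38.p6). Strand was planned as a criterion but not used, and where spans overlapped an Snhg gene or Gas5 was preferred. For hosts with several rows the row with the highest mean was used. Whether such a row probes the host itself or a copy elsewhere in the genome was not checked. The 5 rows of Rpsa differed by 0.09 to 0.33. The array build was not given in the sources used here. Promoter sequences are from RefSeq, and snoRNA sequences were not analysed here.

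Members and gene lists were chosen with earlier results of these data known. Genes named were Pou3f3, all called members, all host rows, the largest differences among rows whose groups did not overlap, snoRNAs in non-coding hosts, protein-coding hosts of named snoRNAs, and called or most changed list genes. Members without a difference, rows called with the block only, further list genes (Fbl, Dkc1, Nop58, Nufip1, Ruvbl2) and further snoRNAs with a shared host were named after their values were seen. Alternatives were the block, 2 rescalings, filters on level and variance, all rows of the table, identical rows counted singly, an intensity trend and leaving out each array.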

Additional observations from a re-analysis of the deposited data

How the results depend on the processing

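The 8 rows called higher became 15 with the replicate block, which lost none of the 8. They became 14 with a variance filter on rows with 1 symbol, where 542 of all 10894 rows were called in either direction. When all rows of the table were tested, 1 member (Snhg5) was called, with or without the variance filter. Few rows of any kind were called in these fits, 12 of 17778 with the filter and 28 of 35556 without it. Member rows called higher ranged from 3 to 8 when an array was left out. There were 3 without knockdown replicate 2 or control replicate 2, and 4 without control replicate 3. In these fits 147, 161 and 219 of all rows were called. Snhg5, Snhg16 and Snord42b were called whichever array was left out. Rows called lower, 0 in the deposited values, were 2 after cyclic loess (both Snora3) and 0 to 1 with an array left out (1, Snora3, without control replicate 2). The box H/ACA median of -0.03 became 0.071 under either variance filter and ranged from -0.044 (without control replicate 3) to 0.00044 (without knockdown replicate 1) with an array left out. The host median of 0.21 became 0.33 under the variance filter on all rows and ranged from 0.093 to 0.28 with an array left out. The box C/D median ranged from 0.18 to 0.28, and 27 to 31 of 32 rows were above 0 in the settings that kept all 32. The sign turned for Snhg15 (-0.14 to 0.11 with an array left out), for 1 row of Snhg17 (-0.0090 after cyclic loess and -0.044 to 0.12 with an array left out) and for another (-0.22 to 0.13 with an array left out). The cause of these changes was not tested. With 3 arrays a group, small differences cannot be resolved, and no measure of signal over background was analysed here. Near-identical rows (Snora3, Snora21, Snord58b) may share probes.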
